A study of Mus musculus with 4 samples.

Results

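The axon guidance ligands and receptors were followed here in the brains of normotensive (NT) and hypertensive (HT) mice with and without stroke. The set held 70 of the 33981 genes in the count tables. Genes were picked by symbol, in families chosen with earlier results of these data known: 20 semaphorins, 11 plexins and neuropilins, 8 ephrins, 14 Eph receptors, 3 Slits, 4 Robos, 3 netrins, 2 netrin-G proteins and 5 receptors of the *Dcc* and Unc5 families. *Ntn3* was not analysed here.

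Poly(A) RNA from coronal brain tissue spanning the prefrontal cortex was sequenced in 24 libraries, 6 for each combination of blood pressure (NT or HT) and surgery (Sham or Stroke). All animals were male C57BL/6J mice of 3-5 months, perfused and collected on day 28 of an infusion by osmotic pump. NT mice are labelled as given saline, although the treatment protocol in the labels names angiotensin II for every sample, and groups follow the treatment label. In HT mice the pump delivered 0.28 mg/kg/day of angiotensin II, a vasoconstrictor hormone infused to raise blood pressure. On day 7 the mice underwent sham surgery or photothrombosis, in which light and the dye Rose Bengal clot the vessels of a small cortical area, so the tissue was taken 21 days later. Each group has 1 sample label, the tables number 6 libraries under it, and each library was treated as 1 mouse. No sequencing batch or date was given.

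Axon guidance molecules steer growing axons by attraction and repulsion, and in the adult brain they also act at synapses, vessels and immune cells. Semaphorins signal through plexins, with neuropilins as partners for most secreted class 3 semaphorins. Ephrins are membrane-bound and signal into Eph receptor tyrosine kinases on neighbouring cells. Slits repel axons through Robo receptors, and netrin-1 attracts through *Dcc* and repels through Unc5 receptors.

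The promoters of 4 genes that rose (*Plxnb2*, *Ephb4*) or fell (*Ephb6*, *Epha7*) after stroke in NT mice are shown first. They were picked by size of change among called genes with a matched promoter and a mean of at least 5 CPM in NT + Sham. *Sema3b*, *Epha2* and *Slit1*, which changed by more, did not meet these conditions. *Slit2*, at a log2 fold change of -0.42 like *Epha7*, is not shown. The sequences are from RefSeq (GRCm38.p6), run 5′ to 3′ on the gene's strand from 250 bases before to 50 bases after its most upstream start, and capitals mark the GC box GGGCGG on either strand, the motif bound by Sp1 family factors. *Plxnb2* lies at chr15:89180739-89181038 on the minus strand, *Ephb4* at chr5:137349859-137350158 on the plus strand, *Ephb6* at chr6:41605261-41605560 on the plus strand and *Epha7* at chr4:28812881-28813180 on the plus strand.
Plxnb2: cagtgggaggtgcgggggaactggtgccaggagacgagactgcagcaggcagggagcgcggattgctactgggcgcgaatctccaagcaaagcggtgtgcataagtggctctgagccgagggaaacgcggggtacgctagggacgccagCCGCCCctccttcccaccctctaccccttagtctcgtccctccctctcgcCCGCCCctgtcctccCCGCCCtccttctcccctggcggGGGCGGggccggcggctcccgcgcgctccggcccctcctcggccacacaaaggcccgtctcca
Ephb4: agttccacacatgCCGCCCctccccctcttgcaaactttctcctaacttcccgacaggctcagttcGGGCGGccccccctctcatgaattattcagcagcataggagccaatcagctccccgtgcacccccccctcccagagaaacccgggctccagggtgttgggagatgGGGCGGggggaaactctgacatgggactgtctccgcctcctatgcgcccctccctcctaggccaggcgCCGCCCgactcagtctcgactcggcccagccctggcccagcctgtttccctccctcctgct
Ephb6: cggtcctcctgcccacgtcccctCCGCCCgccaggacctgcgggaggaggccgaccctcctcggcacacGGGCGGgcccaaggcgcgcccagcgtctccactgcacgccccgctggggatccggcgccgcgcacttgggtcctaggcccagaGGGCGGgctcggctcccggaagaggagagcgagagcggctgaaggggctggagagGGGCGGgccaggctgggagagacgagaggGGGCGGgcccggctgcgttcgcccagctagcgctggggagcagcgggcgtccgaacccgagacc
Epha7: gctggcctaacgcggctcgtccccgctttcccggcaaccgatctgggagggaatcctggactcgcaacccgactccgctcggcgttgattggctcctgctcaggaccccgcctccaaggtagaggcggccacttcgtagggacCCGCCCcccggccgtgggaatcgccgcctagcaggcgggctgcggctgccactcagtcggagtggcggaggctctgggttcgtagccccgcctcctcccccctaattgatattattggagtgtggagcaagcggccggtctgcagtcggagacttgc
The GC box occurred 4 times in the *Plxnb2* window, 4 times in *Ephb4*, 5 times in *Ephb6* and once in *Epha7*. Genes that rose and genes that fell both held it, in 8 of 10 and 10 of 11 matched promoters. Promoters were found for 60 of the 70 genes, and 43 of these (71.7%) held the GC box against 35.9% of 27025 promoters of the same length. Their base composition also differed from the rest, with a median GC content of 64.5% against 52.7% and a median of 22.5 CpG dinucleotides against 7. The AP-1 motif TGANTCA was found on either strand in 1 of 60 (1.67%) against 7.92% of all promoters, the cyclic AMP response element TGACGTCA in 1 of 60 (1.67%) against 1.85%, and the TATA box TATAAA in 2 of 60 (3.33%) against 14.2%. None of the 4 motifs contains another, and a match is a description of the sequence, not a bound site.

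The libraries held 15922919 to 24865998 counts (median 18497215), and the 70 genes together took 0.285 to 0.324% of them. Markers of cortical projection neurons were present in every library, with summed levels of 1930 to 3670 CPM (counts scaled to library size). Striatal and olfactory bulb markers were present in every library too, in amounts that varied more, from 374 to 2900 CPM and from 69 to 831 CPM, so the libraries differed in region markers. 3 libraries went against their labels in markers of microglia and macrophages, scored as the mean log2(CPM + 1) of 9 genes. HT + Sham mouse 6 scored 5.12 against 3.96 to 4.22 in the other HT + Sham mice, and HT + Stroke mice 1 and 6 scored 4.50 and 4.42 against 5.48 to 6.56 in the other HT + Stroke mice. Their meningeal fibroblast scores went the same way, with 4.83 in HT + Sham mouse 6 against 3.02 to 3.83 in its group and 3.58 and 3.66 in HT + Stroke mice 1 and 6 against 4.57 to 6.34. The cortical projection neuron score was 6.23 in HT + Sham mouse 6 against 6.67 to 6.81, and 6.65 and 6.58 in HT + Stroke mice 1 and 6 against 6.17 to 6.41. Whether labels or the position of the section differed was not tested, and HT results are given with and without these libraries. They were picked after the data were seen, by markers that also differed between stroke and sham mice. Leaving them out can widen the stroke difference of any gene that follows those markers. Calls and adjusted *P* values without these libraries are therefore descriptive only.

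The guidance genes spanned a wide range of levels. Levels are compared between genes as FPKM, which divides by gene length and library size. The highest means over the 24 libraries were those of *Sema7a*, a membrane-anchored semaphorin (67.4 FPKM), *Sema6b*, a transmembrane semaphorin (67.0 FPKM), and *Ephb6*, an Eph receptor without kinase activity (64.2 FPKM). *Unc5a*, a netrin receptor, followed at 46.4 FPKM and *Efnb3*, a transmembrane ephrin, at 39.1 FPKM. *Efna3* came next at 30.0 FPKM, before a gap to *Ntng2* at 15.4 FPKM. In 11 genes the mean was 10 FPKM or more, in 50 it lay between 1 and 10 FPKM and in 9 it was under 1 FPKM. The lowest was *Dcc* at 0.0729 FPKM, with 0 to 28 counts per library, so *Dcc* could not be followed at this depth.

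**Figure D1:**
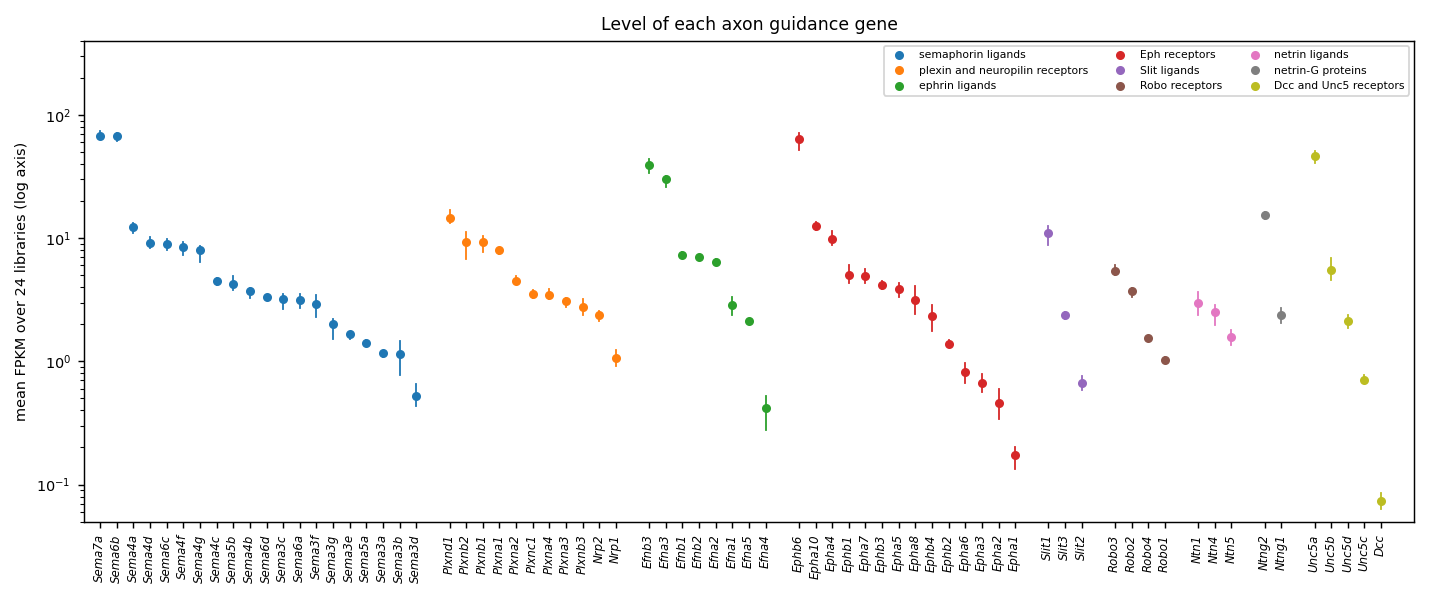
Mean FPKM over the 24 libraries (log axis) of each of the 70 genes, by family; each line spans the lowest to the highest of the 4 group means. *Sema7a*, *Sema6b*, *Ephb6*, *Unc5a* and *Efnb3* lie at 39.1 FPKM and above, and *Dcc* lies lowest at 0.0729 FPKM.

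*Sema7a* and *Sema6b* were called in none of the comparisons described here. *Sema7a* was at 68.2 ± 3.88 FPKM in NT + Sham, 64.2 ± 7.28 in NT + Stroke, 63.3 ± 4.38 in HT + Sham and 73.8 ± 4.07 in HT + Stroke (SD, n = 6), and *Sema6b* was at 66.6 ± 5.64, 61.4 ± 4.57, 68.4 ± 7.92 and 71.4 ± 9.87 FPKM in the same order. The means of *Sema7a*, *Sema6b* and *Ephb6* over the 24 libraries lay close together, and their order was not tested. The plexins and neuropilins ranged from 1.06 FPKM to 14.5 FPKM (*Plxnd1*), the Robos from 1.02 to 5.43 FPKM and the netrins from 1.57 to 2.98 FPKM. Among the ligands of the Robos, *Slit1* was at 11.1 FPKM and *Slit2* at 0.663 FPKM. The spread between mice of a group was modest, with a median coefficient of variation over the genes of 12.6% in NT + Sham, 13.2% in NT + Stroke, 15.7% in HT + Sham and 13.6% in HT + Stroke.

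Guidance genes differed in both directions between NT mice with and without stroke. NT + Stroke vs NT + Sham was tested in edgeR by quasi-likelihood, with the false discovery rate of Benjamini and Hochberg taken over every tested gene, and an adjusted *P* under 0.05 was the threshold. Of 69 guidance genes tested (*Dcc* did not pass the filter on low counts), 15 rose and 14 fell, beside 14.4% of all 16835 genes tested that rose and 11.5% that fell. The median log2 fold change was 0.0781 over the guidance genes and -0.0114 over all genes. Groups did not overlap in 12 of the 69, 5 higher and 7 lower, beside 13.5% of all genes in either direction. With scaling by library size alone, 18 rose and 12 fell, beside 17.7% of all genes that rose and 6.06% that fell. The share of upregulated genes among all genes called moved from 55.6 to 74.5%.

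These counts changed when region markers entered the fit. With the olfactory bulb and striatal marker scores as covariates, only *Plxnb2* remained called (log2 fold change 0.73, adjusted *P* = 0.000935), all 29 kept their direction, 8 had an unadjusted *P* under 0.05 and their median absolute log2 fold change went from 0.40 to 0.21. Calls over all genes went from 4365 to 701. The olfactory bulb score was 3.56 to 4.75 in NT + Sham and 4.25 to 6.21 in NT + Stroke. Markers of other cells moved with the groups as well: all 9 markers of microglia and macrophages rose, with a summed level of 283 to 330 CPM in NT + Sham and 565 to 1180 CPM in NT + Stroke. All 6 meningeal fibroblast markers tested rose (53.2 to 63.9 CPM and 195 to 735 CPM), 5 of 7 astrocyte markers rose (2830 to 3150 CPM and 3440 to 4200 CPM) and all 8 cortical projection neuron markers fell (3020 to 3620 CPM and 2020 to 2840 CPM), none of these lists having a scored marker at 0. Their part in the result was not tested, and in bulk tissue fewer cells of a type and less RNA per cell cannot be told apart.

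**Figure D2:**
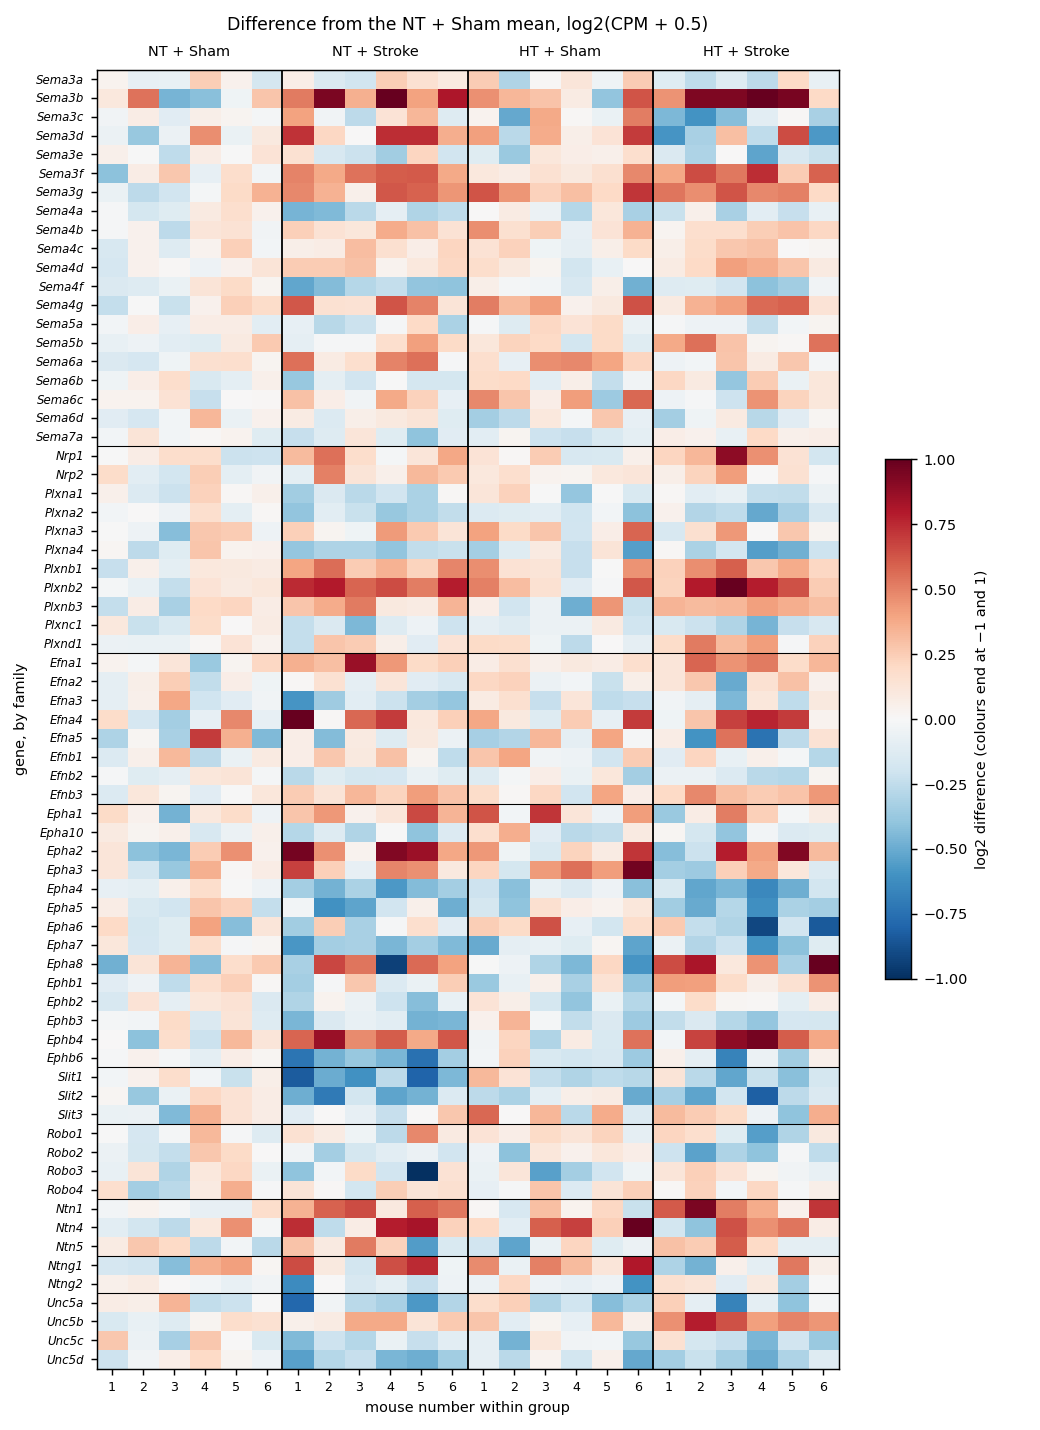
Difference of each library from the NT + Sham mean on the log2(CPM + 0.5) scale, for 69 guidance genes (rows, by family; *Dcc* is left out) in 24 mice (columns, by group). The rows of *Plxnb2* and *Ephb4* are red and those of *Ephb6*, *Epha4*, *Epha7* and *Slit1* blue in all 6 NT + Stroke mice.

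Among the ligands, 8 of 20 semaphorins rose and 2 fell, beside 14.4% of all genes that rose and 11.5% that fell. With the region scores in the fit, none of these semaphorins was called. *Sema3b*, a secreted semaphorin that binds neuropilins, was at 2.48, 3.72 and 5.49 CPM (lowest, median and highest of 6) in NT + Sham and 4.76, 6.05 and 8.73 CPM in NT + Stroke. It rose 1.70-fold (log2 fold change 0.76 ± 0.198 SE, adjusted *P* = 0.00835), although the ranges overlapped. *Sema3f*, which repels axons through neuropilin-2, was at 8.71, 11.9 and 14.3 CPM in NT + Sham and 15.4, 17.0 and 18.2 CPM in NT + Stroke. Every NT + Stroke mouse was above every NT + Sham mouse, and the gene (chr9:107681500-107710475, minus strand) rose 1.43-fold (0.51 ± 0.103, adjusted *P* = 0.00115). *Sema3g*, known from vascular endothelium, rose 1.37-fold (0.45 ± 0.127, adjusted *P* = 0.0137), from a median of 6.65 to 9.63 CPM.

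The other semaphorins that rose changed less or varied more between mice. *Sema3d* rose by 0.53 on the log2 scale (adjusted *P* = 0.0302), *Sema4g* by 0.38 (adjusted *P* = 0.0186) and *Sema6a* by 0.33 (adjusted *P* = 0.0288). *Sema4b* (0.22, adjusted *P* = 0.0444) and *Sema4d* (0.20, adjusted *P* = 0.0229), a ligand of plexin-B1, rose least. With the region scores in the fit, the log2 fold change was 0.0185 for *Sema4g* and 0.0509 for *Sema6a*, against 0.73 for *Plxnb2* and 0.65 for *Ephb4*. Those 4 genes were picked after their values were seen, to show how far the adjustment reached. *Sema4g* was at 44.2 to 48.6 CPM in the 3 NT + Stroke mice with olfactory bulb scores of 5.91 to 6.21 and at 34.1 to 34.7 CPM in the other 3.

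Both semaphorins that fell were of class 4. *Sema4f*, a transmembrane semaphorin, was at 44.1, 48.2 and 56.0 CPM in NT + Sham and 34.0, 36.9 and 41.4 CPM in NT + Stroke. The groups did not overlap, and the level fell to 0.768 of that in NT + Sham (log2 fold change -0.38 ± 0.0708, adjusted *P* = 0.000585). *Sema4a* fell from a median of 72.4 to 58.7 CPM (-0.30 ± 0.0725, adjusted *P* = 0.00488). The 10 remaining semaphorins, with the abundant *Sema6b* (-0.16, adjusted *P* = 0.086) and *Sema7a* (-0.13, adjusted *P* = 0.191) among them, did not pass the threshold.

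Ephrins, Slits and netrins changed in smaller numbers. Of 8 ephrins, *Efnb3* and *Efna1* rose and *Efna3* fell, beside 14.4% of all genes that rose and 11.5% that fell. *Efnb3*, which stops axons at the midline of the spinal cord, was at 97.4, 108 and 116 CPM in NT + Sham and 117, 130 and 143 CPM in NT + Stroke. The groups did not overlap, by a narrow margin, and the gene (chr11:69554092-69560205, minus strand) rose 1.21-fold (0.28 ± 0.0625, adjusted *P* = 0.00261). *Efna1*, a GPI-anchored ephrin found on vessels, rose by 0.45 (adjusted *P* = 0.0281), with 1 high mouse in NT + Stroke at 8.26 CPM against 4.98 to 6.01 CPM in the others; without that mouse the value was 0.33 (adjusted *P* = 0.0761). *Efna3*, another GPI-anchored ephrin, fell by 0.33 on the log2 scale (adjusted *P* = 0.0146).

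*Slit1* and *Slit2* fell and *Slit3* did not pass the threshold (-0.0339, adjusted *P* = 0.875). *Slit1* was at 63.6, 75.0 and 84.4 CPM in NT + Sham and 41.7, 50.7 and 62.1 CPM in NT + Stroke. No NT + Stroke mouse reached the lowest NT + Sham mouse, and the gene (chr19:41600257-41743665, minus strand) fell to 0.677 of its level in NT + Sham (-0.56 ± 0.0906, adjusted *P* = 0.000183). *Slit2* fell from a median of 20 to 13.8 CPM (-0.42 ± 0.111, adjusted *P* = 0.00888). Of 4 Robo receptors none passed the threshold, and the smallest adjusted *P* was 0.19.

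*Ntn1*, the founding netrin (chr11:68209364-68400823, minus strand), was at 14, 14.6 and 16.9 CPM in NT + Sham and 16.0, 22.2 and 23.7 CPM in NT + Stroke. It rose 1.41-fold (0.50 ± 0.094, adjusted *P* = 0.000656), 1 NT + Stroke mouse lying within the NT + Sham range. *Ntn4*, a netrin of basement membranes, had a similar difference with more spread between mice (0.47 ± 0.187, adjusted *P* = 0.0788). The netrin-G proteins *Ntng1* (0.35, adjusted *P* = 0.224) and *Ntng2* (-0.18, adjusted *P* = 0.132), synaptic adhesion ligands anchored by lipid, did not pass the threshold.

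Among the receptors, 2 of 11 plexins and neuropilins rose and 2 fell, beside 14.4% of all genes that rose and 11.5% that fell. Those that rose were 2 of 3 B-type plexins and those that fell 2 of 4 A-type plexins. This split by type was not among the families set for counting. *Plxnb2*, a receptor for class 4 semaphorins, was at 44.2, 53.7 and 57.5 CPM in NT + Sham and 74.8, 85.2 and 91.2 CPM in NT + Stroke. The lowest NT + Stroke mouse lay well above the highest NT + Sham mouse, and the gene (chr15:89155549-89180788, minus strand, promoter shown above) rose 1.61-fold (0.69 ± 0.0703, adjusted *P* = 1.93e-06), the smallest adjusted *P* of the 69 genes. *Plxnb1*, the receptor of *Sema4d*, was at 62.7, 77.3 and 79.5 CPM in NT + Sham and 86.3, 95.7 and 109 CPM in NT + Stroke (0.39 ± 0.0718, adjusted *P* = 0.000569), again without overlap. *Plxnb3* had a log2 fold change of 0.29 and did not pass the threshold (adjusted *P* = 0.0504).

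*Plxna2*, with a median of 84.8 CPM in NT + Sham and 70.4 CPM in NT + Stroke, fell without overlap (-0.27 ± 0.0614, adjusted *P* = 0.00275). *Plxna4* fell by 0.32 (adjusted *P* = 0.00405). Both are partners of neuropilins for secreted semaphorins. *Nrp1* (0.28, adjusted *P* = 0.0801) and *Nrp2* (0.21, adjusted *P* = 0.145), the neuropilins themselves, did not pass the threshold.

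Of 14 Eph receptors, 2 rose and 5 fell, beside 14.4% of all genes that rose and 11.5% that fell. *Ephb4*, a receptor of veins and other vessels (chr5:137350109-137378669, plus strand), was at 5.98, 8.53 and 10.3 CPM in NT + Sham and 10.7, 12.5 and 15.2 CPM in NT + Stroke. The groups did not overlap, and it rose 1.52-fold (0.60 ± 0.123, adjusted *P* = 0.00127). *Epha2* rose 1.68-fold from a low level, 1.66 to 2.74 CPM in the median (0.75 ± 0.239, adjusted *P* = 0.027). The receptors that fell were expressed at higher levels than these 2, with mean FPKM over all libraries of 4.19 to 64.2 against 2.32 and 0.455.

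*Ephb6* was at 252, 271 and 282 CPM in NT + Sham and 161, 195 and 213 CPM in NT + Stroke. This gap left all NT + Stroke mice under the NT + Sham range, and the gene (chr6:41605482-41620509, plus strand) fell to 0.702 of its level in NT + Sham (-0.51 ± 0.0709, adjusted *P* = 3.59e-05). *Epha4*, a receptor for both ephrin classes, fell from a median of 90.1 to 70.1 CPM (-0.41 ± 0.062, adjusted *P* = 8.11e-05), and *Epha7* from 55.4 to 42.1 CPM (-0.42 ± 0.0675, adjusted *P* = 0.000164), both without overlap. *Ephb3* (-0.28, adjusted *P* = 0.0282) and *Epha10* (-0.20, adjusted *P* = 0.0346), which lacks kinase activity, fell by less.

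Of 4 netrin receptors tested, 2 fell and none rose, beside 11.5% of all genes that fell and 14.4% that rose. *Unc5d* was at 19, 22 and 25.4 CPM in NT + Sham and 15, 16.6 and 18.7 CPM in NT + Stroke, without overlap (-0.40 ± 0.0809, adjusted *P* = 0.00128). *Unc5a*, the abundant member of the family, fell from a median of 215 to 170 CPM (-0.37 ± 0.119, adjusted *P* = 0.0312). *Unc5b* was 0.22 higher and did not pass the threshold (adjusted *P* = 0.0507), nor did *Unc5c* (-0.24, adjusted *P* = 0.116). The calls of *Epha2*, *Sema3d*, *Efna1*, *Sema6a*, *Sema4b*, *Sema4d*, *Unc5a*, *Ephb3* and *Epha10* were each lost in 2 to 9 of the 12 fits that left out 1 mouse.

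**Figure D3:**
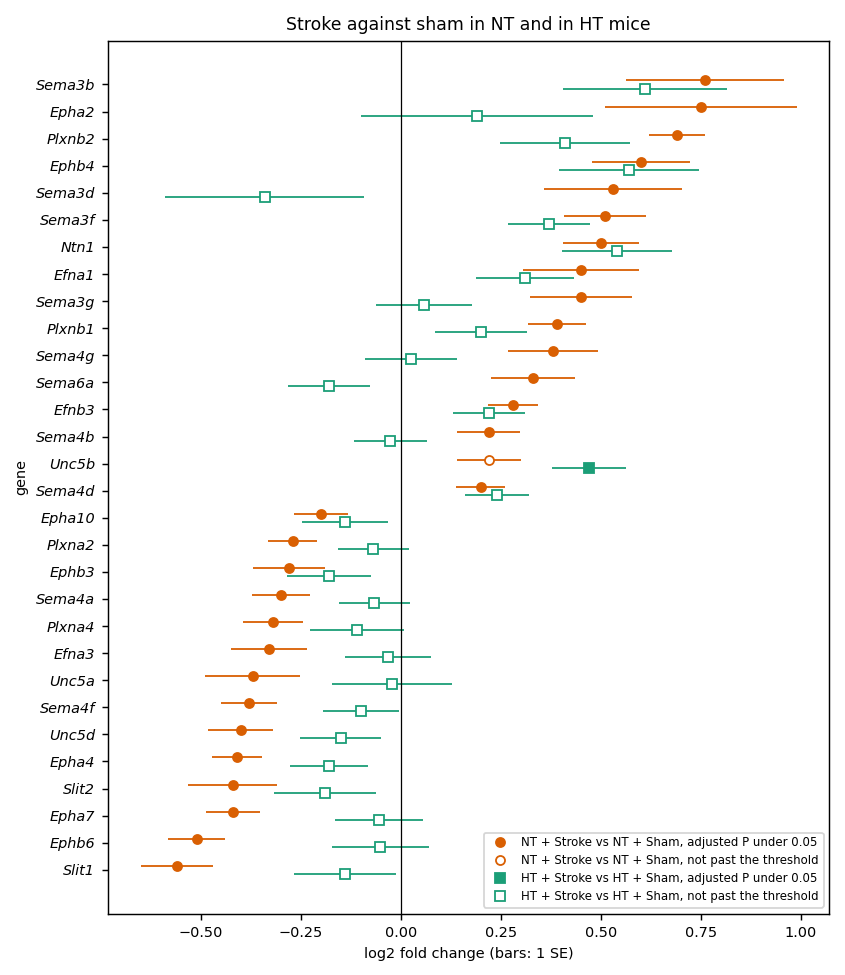
Log2 fold change ± 1 SE after stroke in NT mice (circles) and HT mice (squares) for the 30 genes called in either comparison; filled symbols have an adjusted *P* under 0.05. In NT mice 29 of the 30 are filled, and in HT mice *Unc5b* alone is, at 0.47.

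In HT mice the same comparison called 1 guidance gene. Of 69 genes tested in HT + Stroke vs HT + Sham, *Unc5b* rose and none fell, beside 0.544% of 16741 genes that rose and 0.102% that fell. An unadjusted *P* under 0.05 was held by 25 of the 69 and by 2842 of the 16741. *Unc5b*, a netrin receptor known from vessels and neurons (chr10:60762593-60831581, minus strand), was at 26.4, 29.4 and 35.8 CPM in HT + Sham and 38.0, 39.9 and 49.4 CPM in HT + Stroke. It was the 1 gene of the 69 whose groups did not overlap, beside 1.15% of all genes, and it rose 1.38-fold (log2 fold change 0.47 ± 0.0935, adjusted *P* = 0.0334). The call was lost in 7 of 12 fits that left out 1 mouse, with adjusted *P* from 0.0577 to 0.111 without HT + Sham mouse 1, 2, 3 or 4 or HT + Stroke mouse 2, 3 or 4. It was also lost with library size alone (adjusted *P* = 0.0724), with region scores (0.424) and with limma on log2(FPKM + 1) and log2(FPKM + 0.1) (0.0567 and 0.0803). With region scores, 0 of all 16741 genes were called. DESeq2 called 7 guidance genes beside 2.79% of 32562 genes with at least 1 count. That is a wider set than the 16741 of the main fit, so its share is not comparable. A fit of all 4 groups called 8 beside 6.39% of 17608 genes. An added fit left out HT + Sham mouse 6 and HT + Stroke mice 1 and 6 together, picked by their marker scores. Its adjusted *P* values are descriptive only, and 6 guidance genes were called beside 8.47% of 16956 genes. These were *Unc5b* (0.50 ± 0.116, adjusted *P* = 0.0146), *Ephb4*, *Plxnb2*, *Sema3b* and *Sema3f*, which were higher, and *Epha4* (-0.35 ± 0.0919, adjusted *P* = 0.0275), which was lower.

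The 29 genes called in NT mice mostly had the same sign in HT mice. In HT + Stroke vs HT + Sham, 26 had the same sign, 3 had the opposite sign and none was called, and their median absolute log2 fold change was 0.18 against 0.40 in NT mice, in which they had been chosen. Without the 3 libraries 27 had the same sign, 2 had the opposite sign, 5 were called and the median was 0.25. With all libraries, *Sema3b* (0.61 ± 0.206, adjusted *P* = 0.139), *Ephb4* (0.57 ± 0.176, adjusted *P* = 0.119) and *Ntn1* (0.54 ± 0.137, adjusted *P* = 0.0746) were among the larger values in HT mice. Without the 3 libraries, *Sema3b* was at 0.91 ± 0.186 (adjusted *P* = 0.00679), *Ephb4* at 0.86 ± 0.136 (adjusted *P* = 0.0012) and *Ntn1* at 0.42 ± 0.16 (adjusted *P* = 0.132). *Plxnb2* was at 48.3, 61.6 and 80.8 CPM in HT + Sham and 61.3, 86.2 and 113 CPM in HT + Stroke (0.41 ± 0.163, adjusted *P* = 0.215), and without the 3 libraries its log2 fold change was 0.66 ± 0.13 (adjusted *P* = 0.00514). The highest HT + Sham mouse was mouse 6 at 80.8 CPM and the lowest HT + Stroke mice were 1 and 6 at 61.3 and 62.4 CPM, the same mice whose microglial scores went against their labels. The genes of opposite sign were *Sema3d* (-0.34), *Sema6a* (-0.18) and *Sema4b* (-0.026), and without the 3 libraries these values were -0.00743, -0.14 and 0.0272.

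*Ephb6*, which fell in NT mice, was not called between the HT groups. It was at 210, 243 and 317 CPM in HT + Sham and 170, 256 and 279 CPM in HT + Stroke, with overlapping groups (-0.0516 ± 0.121, adjusted *P* = 0.88). Nor were *Epha7* (-0.0554 ± 0.11, adjusted *P* = 0.852) and *Slit1* (-0.14 ± 0.127, adjusted *P* = 0.618). Without the 3 libraries the values were further below 0, at -0.22 ± 0.133 for *Ephb6* (adjusted *P* = 0.365), -0.22 ± 0.114 for *Epha7* (adjusted *P* = 0.278) and -0.31 ± 0.132 for *Slit1* (adjusted *P* = 0.184). Whether the stroke difference itself differed between HT and NT mice was tested by the interaction of hypertension and stroke in all 24 libraries. No guidance gene of 70 passed the threshold, beside 0.0% of 17608 genes. An unadjusted *P* under 0.05 was held by 17 of the 70 and by 1836 of the 17608. DESeq2 and a fit without the 3 libraries that went against their labels called 0 guidance genes as well. The smallest *P* values belonged to *Sema6a* (interaction -0.52 ± 0.154, adjusted *P* = 0.319), *Sema7a* (0.33 ± 0.0981, adjusted *P* = 0.319) and *Epha3* (-0.81 ± 0.259, adjusted *P* = 0.322). For *Ephb6* the interaction was 0.45 ± 0.146 (adjusted *P* = 0.322). Without the 3 libraries the interactions were -0.47 ± 0.17 for *Sema6a*, 0.33 ± 0.112 for *Sema7a*, -0.55 ± 0.254 for *Epha3* and 0.29 ± 0.145 for *Ephb6*, each with an adjusted *P* of 0.993.

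**Figure D4:**
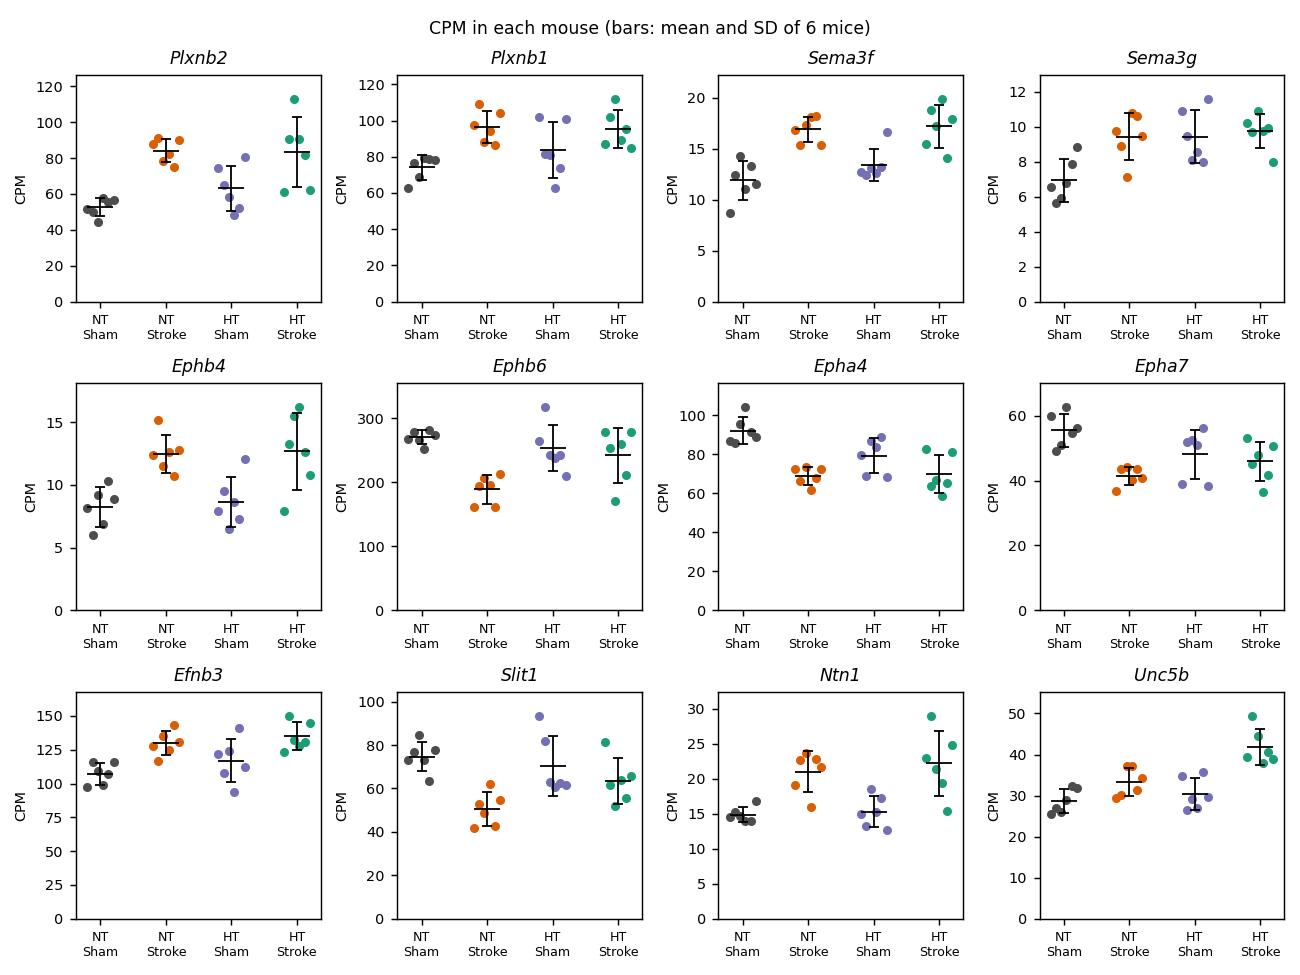
CPM of 12 guidance genes in each mouse (points) of the 4 groups, with the mean and SD of 6 mice (bars); each axis starts at 0. The NT + Stroke mice of *Plxnb2* lie at 74.8 to 91.2 CPM above NT + Sham at 44.2 to 57.5 CPM, and *Unc5b* lies at 38.0 to 49.4 CPM in HT + Stroke above the other 3 groups.

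Hypertension alone called none of the guidance genes. In HT + Sham vs NT + Sham, 0 of 69 passed the edgeR threshold, beside 0.0% of 16581 genes. DESeq2 called 0 as well, as did a fit without HT + Sham mouse 6. In edgeR an unadjusted *P* under 0.05 was held by 12 of the 69 and by 1332 of the 16581. The smallest *P* values were those of 3 semaphorins. *Sema3g* was at 5.66, 6.65 and 8.85 CPM in NT + Sham and 7.97, 9.03 and 11.6 CPM in HT + Sham (0.44 ± 0.132, adjusted *P* = 0.426). *Sema4g* (0.35 ± 0.108, adjusted *P* = 0.426) and *Sema6a* (0.29 ± 0.0956, adjusted *P* = 0.451) were the other two. Without HT + Sham mouse 6 the log2 fold changes were 0.37 for *Sema3g*, 0.28 for *Sema4g* and 0.30 for *Sema6a*. Beside them, the olfactory bulb score ranged over 4.33 to 6.41 among HT + Sham mice against 3.56 to 4.75 among NT + Sham mice, and its part in these differences was not tested beyond the fit with region scores, in which *Sema4g* was at -0.03.

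Among mice with stroke, hypertension also called none. In HT + Stroke vs NT + Stroke, 0 of 69 passed the edgeR threshold, beside 0.0% of 17008 genes. DESeq2 called 0, as did a fit without HT + Stroke mice 1 and 6. In edgeR an unadjusted *P* under 0.05 was held by 11 of the 69 and by 1230 of the 17008. *Unc5b* was at 29.5, 32.8 and 37.2 CPM in NT + Stroke against 38.0, 39.9 and 49.4 CPM in HT + Stroke, so the groups did not overlap, and its log2 fold change was 0.32 ± 0.0839 (adjusted *P* = 0.654). It was the 1 gene of the 69 without overlap, and the share over all genes was not counted in this comparison. *Sema3c*, a secreted semaphorin, was lower in the median, 17.6 against 23.7 CPM (-0.41 ± 0.129, adjusted *P* = 0.654). *Ephb6* was higher, 256 against 195 CPM in the median (0.35 ± 0.116, adjusted *P* = 0.654). Without HT + Stroke mice 1 and 6 the log2 fold changes were 0.37 for *Unc5b*, -0.36 for *Sema3c* and 0.24 for *Ephb6*.

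Hypertension and stroke together were compared with neither in HT + Stroke vs NT + Sham, which shares its NT + Sham mice with the stroke comparison in NT mice. Of 69 genes tested, 14 rose and 5 fell, beside 8.38% of 16749 genes that rose and 6.37% that fell. *Plxnb2* (0.68 ± 0.132, adjusted *P* = 0.0104), *Sema3b* (0.86 ± 0.218, adjusted *P* = 0.0183), *Ephb4* (0.64 ± 0.169, adjusted *P* = 0.0223), *Ntn1* (0.58 ± 0.124, adjusted *P* = 0.0115) and *Sema3f* (0.55 ± 0.117, adjusted *P* = 0.0117) were among those that rose. *Unc5b* had the smallest adjusted *P*, rising 1.47-fold (0.56 ± 0.0833, adjusted *P* = 0.00602). The remaining genes that rose, *Sema3g*, *Plxnb1*, *Sema4g*, *Plxnb3*, *Efnb3*, *Plxnd1*, *Ephb1* and *Sema4d*, had log2 fold changes of 0.25 to 0.50.

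The genes that fell in HT + Stroke vs NT + Sham were *Epha4*, *Epha5*, *Unc5d*, *Sema3c* and *Plxnc1*. *Epha5*, a receptor of GPI-anchored ephrins, was at 60.4, 69.8 and 86.5 CPM in NT + Sham and 46.6, 56.0 and 58.7 CPM in HT + Stroke, without overlap (-0.40 ± 0.0937, adjusted *P* = 0.0143). Groups did not overlap in 5 guidance genes that were higher and 2 that were lower, and the share over all genes was not counted in this comparison. *Epha4* was at 85.8, 90.1 and 104 CPM in NT + Sham and 58.6, 66.1 and 82.5 CPM in HT + Stroke (-0.39 ± 0.0846, adjusted *P* = 0.0118). *Ephb6* (-0.15, adjusted *P* = 0.348) and *Slit1* (-0.23, adjusted *P* = 0.127) did not pass the threshold in this comparison. With each mouse left out in turn, *Sema3c* was called in 2 of 12 fits, *Plxnc1* and *Ephb1* in 4 each and *Sema4g* and *Sema4d* in 6 each. Without HT + Stroke mice 1 and 6, 26 were called, beside 20.6% of 17168 genes against 14.7% with all libraries. Of the 19, 17 were called in both fits and *Ephb1* and *Sema3c* were not, and *Slit1* (-0.35 ± 0.0853, adjusted *P* = 0.00927) and *Epha7* (-0.36 ± 0.091, adjusted *P* = 0.0114) were among the 9 others called. *Ephb6* stayed above the threshold (-0.26 ± 0.101, adjusted *P* = 0.0801). With the region scores as covariates and all libraries, none of the 19 was called, beside 0 of all 16749 genes tested. All 19 kept their direction and 12 had an unadjusted *P* under 0.05, held by 1850 of the 16749.

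**Figure D5:**
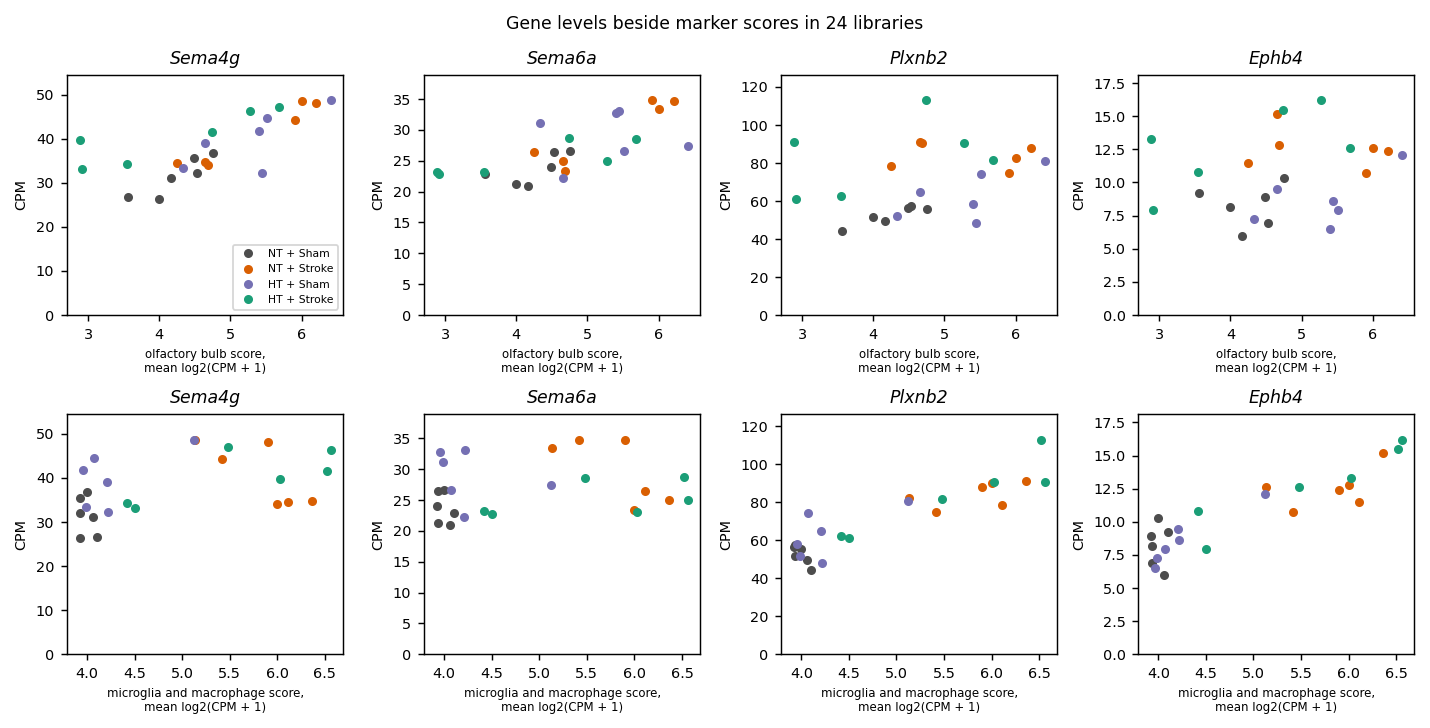
CPM of 4 guidance genes (columns) against the olfactory bulb score (top) and the microglia and macrophage score (bottom) of the same library, 24 libraries coloured by group; scores are the mean log2(CPM + 1) of the marker genes. *Sema4g* and *Sema6a* are high in the 3 NT + Stroke mice with olfactory bulb scores of 5.91 to 6.21, and *Plxnb2* and *Ephb4* are higher in libraries with a higher microglia and macrophage score.

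Genes that work beside these ligands and receptors were counted in the same way after stroke in NT mice, against the shares of 14.4% of all genes that rose and 11.5% that fell. With region scores as covariates, 2 of 54 intracellular effectors, 1 of 25 other guidance cues and receptors and 0 of 11 myelin genes were called, beside 4.16% of all genes. Without them, 10 of the 54 effectors rose and 10 fell, with the tyrosine kinase *Fes* (1.31 ± 0.146, adjusted *P* = 4.45e-06) rising most and *Mical2*, an actin oxidising enzyme, falling most (-0.44 ± 0.0869, adjusted *P* = 0.00111). *Chn1*, a Rac GTPase activating protein downstream of *Epha4*, fell (-0.41 ± 0.0714, adjusted *P* = 0.00035). *Nfatc4* (0.81, adjusted *P* = 0.000717) and *Mical1* (0.69, adjusted *P* = 0.00165) rose.

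Of 25 other guidance cues and receptors, 5 rose and 8 fell. The chemokine receptor *Cxcr4* (2.03 ± 0.196, adjusted *P* = 9.94e-07), its ligand *Cxcl12* (0.73 ± 0.11, adjusted *P* = 0.000155) and the *Dcc* ligand *Draxin* (1.63 ± 0.305, adjusted *P* = 0.000615) rose, and the adhesion molecules *Chl1* (-0.53 ± 0.0863, adjusted *P* = 0.000186), *Flrt2* (-0.40 ± 0.0688, adjusted *P* = 0.00029) and *Lrrc4c* (-0.40 ± 0.08, adjusted *P* = 0.00117) fell. *Lrrc4c* is the partner of *Ntng1*. Of 11 myelin growth inhibitors and their receptors, 1 rose and 6 fell. The receptor genes *Rtn4r* (-0.56, adjusted *P* = 0.00059), *Rtn4rl2* (-0.50, adjusted *P* = 0.000235) and *Lingo1* (-0.47, adjusted *P* = 4.1e-05) fell, while *Ngfr*, a neurotrophin receptor that can join them, rose (0.80, adjusted *P* = 0.00147).

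In HT + Stroke vs HT + Sham, *Fes* (1.22 ± 0.238, adjusted *P* = 0.0334) was the 1 effector of 54 called, none of the 25 other cues was called, and *Mag*, a myelin glycoprotein that is also an oligodendrocyte marker, was the 1 of 11 myelin genes called (0.54 ± 0.0828, adjusted *P* = 0.0115). Of all 16741 genes tested with all libraries, 0.645% were called. Beside *Mag*, 4 of 6 oligodendrocyte markers, *Mag* included, rose in this comparison. Without the 3 libraries, 4 effectors were higher and 1 was lower, 2 other cues were higher and 4 lower, and 1 myelin gene was higher and 1 lower, beside 8.47% of all genes called.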

How the data were processed

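Coronal brain tissue spanning the prefrontal cortex was sequenced in 24 libraries, 6 per group. The deposited count columns hold whole numbers per gene, left unnormalized by the authors, and the submitters' processing notes name featureCounts 1.5.0-p3 and DESeq2 1.20.0. The aligner and genome build are not given in the sources used here. The authors derived the deposited FPKM values from counts, gene length and library size. The 4 deposited tables were joined by gene identifier, and 0 of 48 comparisons of a library between tables differed. The authors' log2 fold changes, their p-value columns, 48 normalized columns and 8 group mean columns were not used. Gene positions match GENCODE release 21 of the mouse (GRCm38) for 33163 of 33981 genes and for 69 of the 70 guidance genes.

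The 70 genes, the pathway lists and the marker lists were chosen with earlier results of these data known. Counts were tested in edgeR 4.0.16 (R 4.3.3) with filterByExpr (minimum count 10, minimum total 15), TMM scaling and robust quasi-likelihood fits of the groups compared, two-sided, with Benjamini-Hochberg adjustment over every tested gene and a threshold of 0.05. Called genes up to 15 in each direction, the 3 smallest *P* values where none was called and the 5 highest levels were described one by one. Where nothing shows that libraries came from separate mice, *P* values measure the spread between libraries. The SE of an edgeR log2 fold change was derived from its test, as the absolute change divided by the square root of the F statistic. CPM values used TMM-scaled library sizes. Marker scores used markers with a mean of at least 0.5 CPM. Alternatives were upper-quartile scaling, library size alone, all genes with at least 1 count, limma 3.58.1 on log2(FPKM + 1) and log2(FPKM + 0.1), DESeq2 1.42.0, a fit of all 4 groups, region scores as covariates, each mouse left out, and, chosen after the data were seen, 3 HT libraries left out. On simulated NT + Stroke vs NT + Sham counts (16895 genes, 200 changed), 100% of changes of 1 and 75% of changes of 0.5 on the log2 scale were recovered, with 12 false calls. The simulated spread came from the NT + Sham libraries alone, and the changed genes were picked among those with higher counts. Recovery in the real groups may therefore be lower. No paired analysis was possible because the sample labels carry no replicate numbers and nothing ties the library numbers 1 to 6 of the tables across groups. Counts of polymerase-amplified reads are not independent molecules, so precision from depth covers counting error alone.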

Additional observations from a re-analysis of the deposited data

Results flagged for a closer look

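The highest and lowest mouse of each group of 6 were compared with the others in 39 guidance genes, 156 groups in all, by the gap to the nearest mouse over the range of the group (Dixon's ratio, 95% level). Chance alone would mark about 1 in 20 groups, and 2 were marked. *Efna1* in NT + Stroke mouse 3 was at 8.26 CPM against 4.98 to 6.01 CPM in the other mice (ratio 0.687). *Sema3f* in HT + Sham mouse 6 was at 16.6 CPM against 12.4 to 13.2 CPM in the other mice (ratio 0.817). HT + Sham mouse 6 is also the library with the microglia and macrophage score of 5.12, and the part of that in its *Sema3f* level was not tested.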

How the results depend on the processing

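In NT + Stroke vs NT + Sham the number of guidance genes called went from 29 to 1 with region scores as covariates and lay between 24 and 33 under the other alternatives, and between 22 (without NT + Sham mouse 1) and 31 with each mouse left out. Of all genes, 25.9% were called in the main fit and 4.16% with region scores. The other alternatives called 13.1 to 25%, the lowest share over a wider set of genes. With each mouse left out, 3530 to 4210 of all genes were called, against 4365. 18 of the 29 genes were called under every alternative other than the region scores. In HT + Stroke vs HT + Sham the 1 call became 0 with library size alone, with region scores and with limma on log2(FPKM + 1) and log2(FPKM + 0.1). It became 3 with all genes, 7 with DESeq2, 8 with all 4 groups in one fit and 6 without HT + Sham mouse 6 and HT + Stroke mice 1 and 6, and ranged from 0 to 3 with each mouse left out. Of all genes, 0.645% were called in the main fit, 0.4% with library size alone, 0% with region scores and 0.34 and 0.179% with limma. The share was 0.55% with all genes, 2.79% with DESeq2, 6.39% with all 4 groups in one fit and 8.47% without the 3 libraries. Calls over all genes ranged from 9 to 533 with each mouse left out, against 108. In HT + Stroke vs NT + Sham the 19 calls became 0 with region scores and 12 with limma on log2(FPKM + 0.1), and ranged from 12 (without HT + Stroke mouse 2) to 22. The share of all genes called went from 14.7% to 0% with region scores and 7.96% with that limma fit. Calls over all genes ranged from 1357 (without HT + Stroke mouse 2) to 2966, against 2470. Upregulated genes made up 55.6% of all calls in NT mice, 69.4 and 71.4% with limma and 74.5% with library size alone. *Sema4g* in HT + Sham vs NT + Sham reversed from 0.35 to -0.03 with region scores. For single genes, 1025 of the values under alternatives kept their direction and their side of the threshold, 196 lost the call and 1 reversed. The 1025 include genes that were not called in the main fit and stayed uncalled. The cause was not tested, apart from leaving out mice, which removes samples. At this depth *Dcc*, *Epha1* and *Efna4*, with at most 28 counts in any library, could hardly be followed.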

Other observations

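Several guidance genes that were called in no comparison varied with the region markers of the library. *Ntng1* was at 26.2 to 28.1 CPM in the 3 NT + Stroke mice with olfactory bulb scores of 5.91 to 6.21 and at 14.5 to 17.8 CPM in the other 3, and *Ntn4* was at 12.6 to 13.4 CPM and 6.1 to 8.7 CPM in the same mice. *Epha3* reached its highest level of all 24 libraries, 10 CPM, in HT + Sham mouse 6, the library with the highest olfactory bulb score (6.41). *Epha8* went the other way and was lowest in NT + Stroke mouse 4 at 6.4 CPM, where the striatal score was 5.05, and highest in HT + Stroke mouse 6 at 26.5 CPM, where it was 7.55. These genes were picked after their values were seen.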
